A study of Homo sapiens with 6 samples.

Results

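Interferon-stimulated and RNA-sensing genes were examined as a group of 41 named members among the 30727 genes listed for each library, and all 41 were found in the files by gene ID. They were taken by gene name from the interferon and RNA-sensing pathways. No measured value is in the rule, but the members were chosen with earlier results of these data known. By role they were 2 receptor subunits, 8 sensors with their adaptor, 5 transcription factors and 26 effectors and regulators. The assay was RNA-seq of polyadenylated transcripts in PANC-1, an epithelial line derived from a human pancreatic ductal carcinoma. The 3 knockdown libraries came from cells given siRNA labelled as SUV420H2 knockdown, and the 3 control libraries from cells whose siRNA label reads control. SUV420H2 is now called KMT5C, and its product adds methyl groups to lysine 20 of histone H4. All 6 libraries are of the same line. Neither the siRNA sequences, the nature of the control nor the time of harvest is given in the sources used here. Per the labels, the protocol for extracting RNA speaks of neurons, microglia and astrocytes, and none of these is PANC-1. No label says whether the libraries were separate cultures, so p-values below reflect the spread between these samples, which may be technical.

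The libraries held 27007534 to 38022772 counted reads in the knockdown and 20863594 to 25931995 in the control. KMT5C (chromosome 19, 55339876 to 55348121 on GRCh38) had 6.03, 6.11 and 5.86 CPM in the knockdown libraries, against 9.55, 7.23 and 12.7 CPM in the control libraries, where CPM is counts per 1e6 reads after TMM scaling. No knockdown value reached the lowest control value, although the control values were spread widely (edgeR adjusted p = 0.00227 for a log2 fold change of −0.72 with SE 0.163). Tested against a 1.5-fold change the adjusted p was 0.305, and without control replicate 3 the log2 fold change was −0.50. Permuting the 6 values exactly gave a two-sided p of 0.1, which 3 against 3 cannot go below. Control replicate 3 stood apart from the other controls, with a chi-square per degree of freedom of 11.3 and 13.6 over genes, against 1.55 between control replicates 1 and 2. The keratin genes KRT8, KRT18, KRT7 and KRT19 summed to 5590 to 5828 CPM in the knockdown and 2414 to 2954 CPM in the control. KRT8, KRT18 and KRT7 rose (log2 fold change 1.54, 1.57 and 1.29), and KRT19 fell by 0.32 on the log2 scale (edgeR adjusted p = 0.00472). Of 10 markers of leukocytes and plasmacytoid dendritic cells, 8 had under 60 reads in all libraries together, none was at 0, and the list summed to 4.13 to 5.12 CPM in the knockdown and 2.36 to 3.06 CPM in the control. Among these, CD14 rose (log2 fold change 1.75, edgeR adjusted p = 1.52e-05) and ITGAM did not pass (0.02, edgeR adjusted p = 0.952). Markers of the cells named in the extraction protocol summed, for 4 neuron genes, to 8.85 to 9.66 CPM in the knockdown and 11.7 to 14.5 CPM in the control. SYP fell (−0.82, edgeR adjusted p = 0.000261) and GAD1 did not pass. SNAP25 rose (0.93, edgeR adjusted p = 0.0246), from 69 reads in the knockdown and 27 in the control. For 3 astrocyte genes, of which AQP4 was at 0, the sum was 0.339 to 0.479 CPM in the knockdown and 0.0482 to 0.196 CPM in the control. For 4 microglia genes it was 0.0783 to 0.331 CPM in the knockdown and 0 to 0.280 CPM in the control. The part of these differences in the results below was not tested.

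Cells detect viral RNA through helicases in the cytoplasm, such as RIG-I and MDA5, which signal through the mitochondrial adaptor MAVS to the factors IRF3 and IRF7 and so switch on interferon genes. Secreted type I interferon binds the receptor IFNAR1 and IFNAR2, and the kinases JAK1 and TYK2 then activate STAT proteins, among them STAT2. With IRF9 it is part of the complex ISGF3, which binds the interferon-stimulated response element in the promoters of interferon-stimulated genes, many of which encode antiviral effectors and the sensors themselves. Carcinoma lines differ in how much of this program they express without added interferon.

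Most of the changed members were lower in the knockdown cells, while IFIT1 and IFIT2 stood out among the fewer that were higher. Of the 41 members, 33 passed the low-count filter. In edgeR's quasi-likelihood test, 24.2% of the 33 rose (8 genes), 54.5% fell (18 genes) and the other 7 did not pass. Among all 15190 tested genes, 33.1% were called higher and 34.2% lower, or 67.3% in either direction, so a call alone sets no gene apart in this comparison. The median log2 fold change was −0.38 over the 33 members and −0.01 over all genes tested. Tested against a 1.5-fold change, 2 members passed as higher and 12 as lower, while 10.6% of all genes passed as higher and 9.16% as lower. The groups did not overlap for 29 of the 33 members, against 71.3% of all genes. OAS2 and XAF1 reached the filter's level of 0.378 CPM in 3 libraries of the control alone, and these genes could enter the test only by being higher there. With genes below a mean log2 CPM of 1 left out, 29 members were tested, 8 rose and 14 fell, and their median was −0.21. In RNA from whole cultures, fewer cells that express a gene cannot be told apart from less RNA of it per cell.

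**Figure D1:**
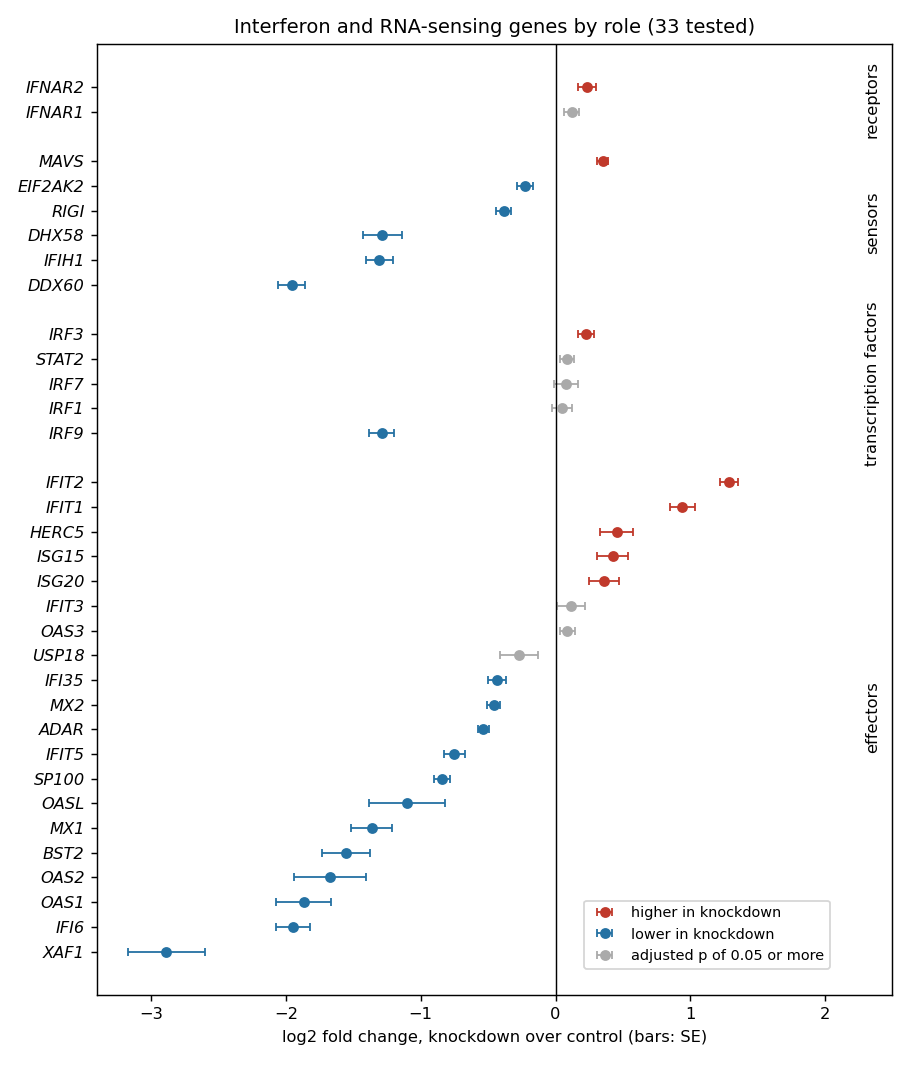
Log2 fold change of knockdown over control for the 33 tested members, grouped by role, with horizontal bars for the SE derived from edgeR's test. Points to the right of the line at 0 are higher in the knockdown, and colour shows the call at an adjusted p of 0.05. The sensors other than MAVS lie left of the line, STAT2, IRF1 and IRF7 lie near it with IRF9 far to the left at −1.29, and the effectors run from XAF1 at −2.89 to IFIT2 at 1.29.

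The interferon genes themselves were at the edge of detection. None of 21 genes for type I, II and III interferons passed the filter, 7 of them had no read in any library, and together they had 21 reads in the knockdown libraries and 41 in the control libraries, out of 94788547 reads in the knockdown and 71948929 in the control. IFNE, an epithelial type I interferon, had the most, with 5 reads in the knockdown and 17 in the control. Transcripts of both subunits of the type I receptor were present in all libraries. IFNAR1 (chromosome 21, 33324395 to 33359864) had 65.9, 64.3 and 64.0 CPM in the knockdown libraries, against 60.8, 63.3 and 54.9 CPM in the control libraries, and did not pass (log2 fold change 0.12, SE 0.0573, edgeR adjusted p = 0.0857). Without control replicate 2 it passed as higher (0.17, edgeR adjusted p = 0.0337). IFNAR2, the subunit that binds interferon most tightly, had 23.5, 25.1 and 22.5 CPM in the knockdown libraries, against 20.4, 19.8 and 20.1 CPM in the control libraries. The groups did not overlap, and the rise was small (0.23, SE 0.0652, edgeR adjusted p = 0.00805). IFNAR2 shares 2038 exon bases with AP000295.1 on the same strand, a gene not analysed here. It also shares 1803 exon bases with IL10RB-DT on the opposite strand, which had 18 reads in the knockdown and 17 in the control. Whether strand was used in counting is not given in the sources used here.

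Of the 6 tested genes in the sensor group, which includes the adaptor MAVS, 5 fell and MAVS rose. Over all tested genes 34.2% fell and 33.1% rose. Against a 1.5-fold change 3 of the 6 were lower, and 9.16% of all tested genes were. The largest fall among these 6 was that of DDX60 (chromosome 4, 168216294 to 168325979), a helicase reported to assist RIG-I-like receptors. DDX60 had 3.24, 2.69 and 3.16 CPM in the knockdown libraries, against 12.3, 12.05 and 11.2 CPM in the control libraries. Every knockdown value lay far below every control value, and the level was 3.89-fold higher in control (log2 fold change −1.96, SE 0.0983, edgeR adjusted p = 2.39e-08). IFIH1, which encodes the long double-stranded RNA sensor MDA5 (chromosome 2, 162267074 to 162318684), had 6.48, 6.26 and 5.49 CPM in the knockdown libraries, against 14.3, 17.01 and 14.0 CPM in the control libraries. The groups were well apart (−1.31, SE 0.102, edgeR adjusted p = 6.90e-07). DHX58, which encodes LGP2, a helicase that tunes MDA5 and RIG-I, had 1.36, 1.66 and 1.36 CPM in the knockdown libraries, against 3.72, 3.08 and 3.76 CPM in the control libraries. It fell by 1.29 on the log2 scale (SE 0.145, edgeR adjusted p = 1.33e-05), from 138 reads in the knockdown and 253 in the control.

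RIGI, the sensor of short double-stranded RNA with a 5′ triphosphate, had a smaller fold change than IFIH1, a difference between genes that was not tested. It averaged 34.6 ± 0.906 CPM in the knockdown and 45.2 ± 2.15 CPM in the control (SD, n = 3 each) and fell by 0.38 on the log2 scale (SE 0.0565, edgeR adjusted p = 0.000111). EIF2AK2, which encodes PKR, the kinase that stops translation when it binds double-stranded RNA, averaged 51.6 ± 3.05 CPM in the knockdown and 60.3 ± 3.61 CPM in the control (SD, n = 3 each). It fell by 0.23 on the log2 scale (SE 0.0615, edgeR adjusted p = 0.00711). MAVS, the mitochondrial adaptor through which RIG-I and MDA5 signal (chromosome 20, 3846834 to 3876118), had 171, 176 and 171 CPM in the knockdown libraries, against 133, 139 and 135 CPM in the control libraries. All 3 knockdown values were above the highest control value, and the rise was 1.28-fold (log2 fold change 0.35, SE 0.0411, edgeR adjusted p = 1.85e-05). EIF2AK2 shares 35 exon bases with GPATCH11 on the opposite strand, which averaged 34.0 CPM in the knockdown and 24.3 CPM in the control. On that strand EIF2AK2 also shares 401 exon bases with AC007899.1, a gene not analysed here. The falls of RIGI and EIF2AK2 and the rise of MAVS did not pass against a 1.5-fold change (edgeR adjusted p = 1 for each). TLR3, the endosomal RNA sensor, had 2 reads in the knockdown and 12 in the control, and IFI16, a sensor of DNA, had 5 in the knockdown and 13 in the control, too few to pass the filter. With no filter TLR3 was called lower (−2.77, edgeR adjusted p = 0.0129) and IFI16 was not (−1.72, edgeR adjusted p = 0.066).

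Of the 5 transcription factors, only IRF9 passed the test against a 1.5-fold change, as lower. That test was passed as lower by 9.16% of all tested genes and as higher by 10.6%. IRF9, the DNA-binding partner of STAT2 in ISGF3 (chromosome 14, 24161265 to 24166565), had 6.03, 5.78 and 6.56 CPM in the knockdown libraries, against 13.8, 14.9 and 16.2 CPM in the control libraries. The highest knockdown value was under the lowest control value, with a log2 fold change of −1.29 (SE 0.0902, 2.45-fold higher in control, edgeR adjusted p = 2.95e-07). IRF9 shares 1838 exon bases with AL136295.5 on the same strand, a gene not analysed here. STAT2 did not pass and averaged 40.0 ± 0.858 CPM in the knockdown and 37.8 ± 0.368 CPM in the control (SD, n = 3 each; 0.08, SE 0.0510, edgeR adjusted p = 0.172). The difference between IRF9 and STAT2 was not tested. IRF3, the factor that MAVS signalling activates, had 58.3, 53.7 and 55.9 CPM in the knockdown libraries, against 45.7, 46.8 and 51.0 CPM in the control libraries. This was a small rise without overlap (0.23, SE 0.0579, edgeR adjusted p = 0.00484). IRF3 shares 734 exon bases with BCL2L12 on the opposite strand, which averaged 54.3 CPM in the knockdown and 33.7 CPM in the control, and the part of those reads in the IRF3 counts was not tested. IRF7, the factor that amplifies interferon production, stood at 0.08 (edgeR adjusted p = 0.447) and IRF1, a factor of the interferon gamma response, at 0.05 (edgeR adjusted p = 0.599), both with overlapping groups. Neither passed under any alternative setting, and IRF1 stood at −0.01 without control replicate 1.

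Promoter sequence was at hand for 32 of the 41 members, from RefSeq on GRCh38.p14, as the 250 bases before and 50 bases after the start that the table gives. The interferon-stimulated response element was searched as GAAANNGAAA on both strands, and overlapping matches were counted. It was found in the windows of 17 of the 32 members (53.1%), against 3.65% of all 27305 windows of that length. Among members with a window, the motif was present in both directions: 4 of 5 that rose and 7 of 14 that fell held it. No window was at hand for IFIT2, IFNAR2 and IRF3, which rose, or for DHX58, OAS2, OASL and MX2, which fell. Of the 13 tested members with a match 4 rose and 7 fell, and of the 11 without one 1 rose and 7 fell. Over all tested genes with a window, 30.2% of the 305 with a match rose and 38.0% fell, against 33.6% and 35.2% of the 11229 without one. With 1 mismatch allowed in the fixed letters, the motif was in 23 of 32 member windows and 33.4% of all windows. It was then in 4 of 5 members that rose and 11 of 14 that fell. The gamma-activated site, searched as TTCNNNGAA, which reads the same on both strands, was in 8 of 32 member windows (25%) and 7.88% of all windows. A match is a run of letters and was not tested as a binding site. The upstream stretches of IFIT1 and ISG15, which rose, and of IFIT5 and IFI6, which fell, are printed to show that the element is present on both sides. They lie at chr10:89392373-89392622, chr1:1013247-1013496, chr10:89414318-89414567 (all on the plus strand) and chr1:27672193-27672442 (minus strand), each ending just before the start, with capitals for the fixed letters of each match (as their reverse complement where the match is on the other strand). The third match of IFIT5 runs across the start, so only its first fixed letters are seen.
IFIT1: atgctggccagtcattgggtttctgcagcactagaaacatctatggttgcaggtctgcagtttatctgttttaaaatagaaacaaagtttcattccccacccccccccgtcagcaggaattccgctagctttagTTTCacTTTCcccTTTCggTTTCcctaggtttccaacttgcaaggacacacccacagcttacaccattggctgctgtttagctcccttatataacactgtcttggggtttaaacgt
ISG15: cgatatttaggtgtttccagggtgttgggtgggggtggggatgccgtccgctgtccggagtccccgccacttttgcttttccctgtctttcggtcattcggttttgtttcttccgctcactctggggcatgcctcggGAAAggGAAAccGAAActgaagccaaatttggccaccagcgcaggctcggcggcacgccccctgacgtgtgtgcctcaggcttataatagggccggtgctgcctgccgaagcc
IFIT5: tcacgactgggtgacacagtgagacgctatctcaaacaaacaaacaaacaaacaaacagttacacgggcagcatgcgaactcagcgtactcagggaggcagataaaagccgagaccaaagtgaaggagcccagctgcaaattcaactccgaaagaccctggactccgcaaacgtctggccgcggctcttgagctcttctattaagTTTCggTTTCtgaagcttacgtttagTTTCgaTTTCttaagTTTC
IFI6: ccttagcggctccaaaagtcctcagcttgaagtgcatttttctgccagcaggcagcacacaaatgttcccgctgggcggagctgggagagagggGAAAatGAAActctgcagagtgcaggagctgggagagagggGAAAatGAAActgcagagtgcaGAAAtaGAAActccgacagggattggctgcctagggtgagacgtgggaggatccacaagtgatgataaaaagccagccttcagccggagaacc

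Shorter stretches around the first match are given for 5 further members to compare the spacing of the repeats. HERC5 (chr4:88456979-88457018, plus strand) and ISG20 (chr15:88638932-88638971, plus strand) rose. DDX60 (chr4:168318816-168318855, minus strand), IFIH1 (chr2:162318819-162318858, minus strand) and BST2 (chr19:17405736-17405775, minus strand) fell. HERC5, IFIH1 and BST2 hold overlapping matches, in which a middle GAAA serves both, whereas DDX60 and ISG20 show a single match in the stretch.
HERC5: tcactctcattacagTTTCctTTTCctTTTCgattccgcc
ISG20: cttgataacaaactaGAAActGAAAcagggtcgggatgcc
DDX60: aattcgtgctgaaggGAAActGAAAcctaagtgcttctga
IFIH1: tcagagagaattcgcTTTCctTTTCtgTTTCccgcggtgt
BST2: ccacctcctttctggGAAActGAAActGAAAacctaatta

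The 20 effectors that could be tested held both ends of the range: 12 fell and 5 rose, and the median log2 fold change was −0.50. The other 3 did not pass. Against a 1.5-fold change 2 were higher and 8 lower. OAS2 and XAF1, which could enter the test only by being higher in the control, are among those that fell. Over all tested genes 34.2% fell and 33.1% rose, and against a 1.5-fold change 10.6% were higher and 9.16% lower. The 4 genes of the IFIT family, whose products bind viral RNA, lie together on chromosome 10. IFIT1 and IFIT2 rose, IFIT5 fell and IFIT3 did not pass. IFIT2 (89302046 to 89309271) had 34.8, 37.8 and 36.6 CPM in the knockdown libraries, against 15.4, 14.2 and 15.05 CPM in the control libraries. This was the largest rise among the tested members, 2.44-fold and with the groups far apart (log2 fold change 1.29, SE 0.0643, edgeR adjusted p = 2.33e-08). IFIT1 (89392623 to 89406487), which binds RNA with an unmethylated cap, had 31.9, 32.7 and 34.7 CPM in the knockdown libraries, against 18.5, 18.9 and 14.4 CPM in the control libraries. It rose 1.92-fold (0.94, SE 0.0934, edgeR adjusted p = 4.93e-06).

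IFIT5 lies only 8.08 kb from IFIT1 (89414568 to 89420997) and went the other way. It had 14.7, 14.0 and 15.5 CPM in the knockdown libraries, against 26.5, 25.6 and 22.3 CPM in the control libraries. The groups did not overlap (−0.75, SE 0.0799, edgeR adjusted p = 8.61e-06, or 0.0425 against a 1.5-fold change). IFIT3, which stabilises IFIT1, averaged 8.67 ± 1.13 CPM in the knockdown and 7.96 ± 0.218 CPM in the control (SD, n = 3 each). These values overlapped and did not pass (0.12, SE 0.103, edgeR adjusted p = 0.340). IFIT2 shares 65 exon bases with LIPA, a lysosomal lipase gene on the opposite strand, which averaged 353 CPM in the knockdown and 242 CPM in the control, and the part of LIPA reads in the IFIT2 counts was not tested. IFIT2 also shares 356 exon bases with AL353751.1 on the same strand, a gene not analysed here.

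**Figure D2:**
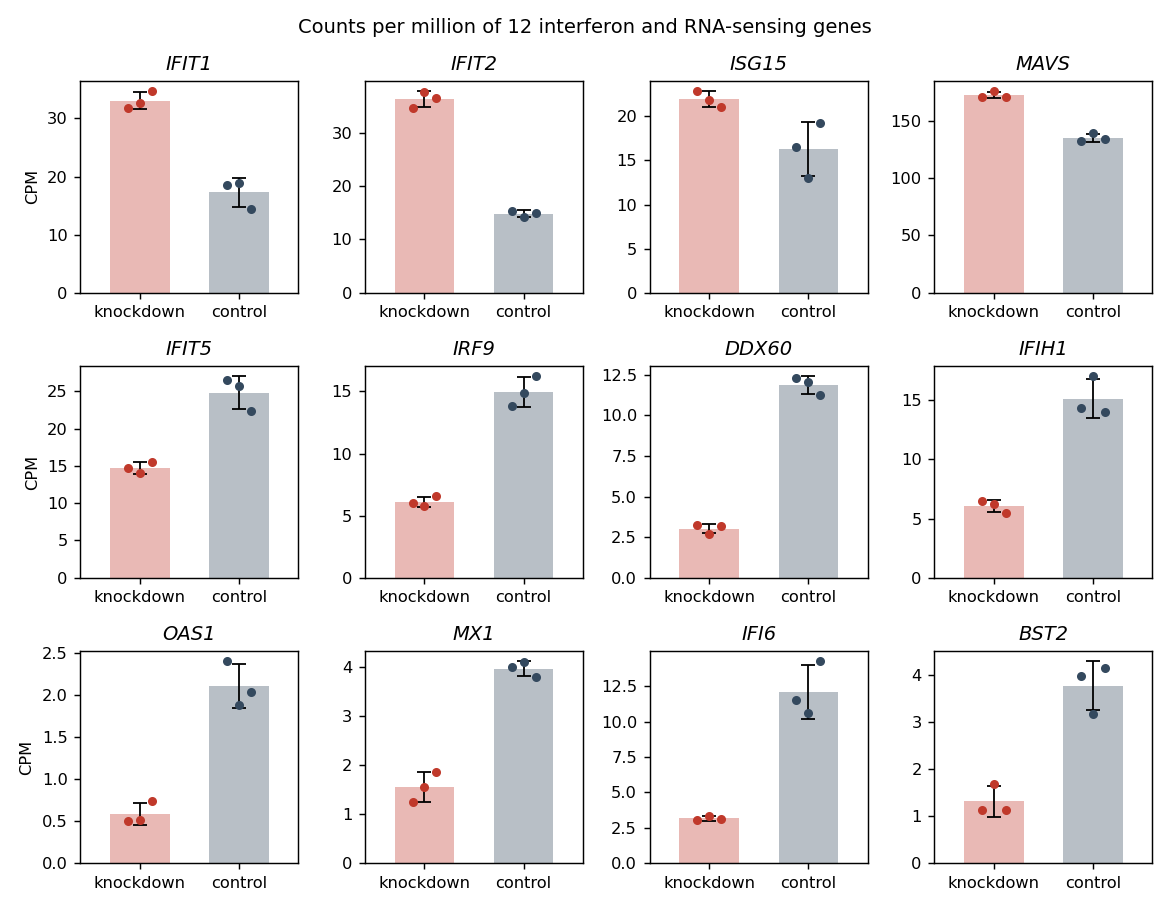
CPM in each library for 12 members, with knockdown left of control in each panel. Dots are libraries, bars are means from 0, and error bars are SD over 3 libraries. IFIT1, IFIT2, ISG15 and MAVS are higher in all 3 knockdown libraries, and the other 8 genes are lower in all 3.

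The OAS genes encode enzymes that make 2′-5′ oligoadenylate on binding double-stranded RNA, which activates the nuclease RNase L. Of the 4, 3 fell and the most abundant did not pass, where 34.2% of all tested genes fell and 33.1% rose. OAS1 (chromosome 12, 112906962 to 112933219) had 0.496, 0.515 and 0.732 CPM in the knockdown libraries, against 2.40, 1.88 and 2.04 CPM in the control libraries, from 55 reads in the knockdown and 151 in the control. It fell by 1.87 on the log2 scale (SE 0.203, edgeR adjusted p = 1.03e-05). OAS2 had 0.339, 0.221 and 0.366 CPM in the knockdown libraries, against 0.959, 1.20 and 0.901 CPM in the control libraries (−1.67, SE 0.265, edgeR adjusted p = 0.000189). OAS2 could enter the test only by being higher in the control. OASL, a relative without the enzymatic activity, had 0.575, 0.479 and 0.998 CPM in the knockdown libraries, against 1.28, 1.20 and 1.88 CPM in the control libraries. These 3 genes were low in both groups, and OASL came closest to overlap (−1.10, SE 0.283, edgeR adjusted p = 0.00501, or 0.0717 against a 1.5-fold change). OAS3 lies between OAS1 and OAS2, within 5.26 and 5.27 kb of each. It averaged 75.7 ± 2.36 CPM in the knockdown and 71.2 ± 4.10 CPM in the control (SD, n = 3 each), with overlapping groups (0.09, SE 0.0535, edgeR adjusted p = 0.167). Without control replicate 3 it passed as higher at 0.12 (edgeR adjusted p = 0.0123).

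MX1 and MX2 encode dynamin-like GTPases that trap viral nucleocapsids, lie 11.2 kb apart on chromosome 21, and both fell. MX1 (41420558 to 41459214) had 1.253, 1.55 and 1.86 CPM in the knockdown libraries, against 3.995, 4.10 and 3.80 CPM in the control libraries (−1.36, SE 0.150, edgeR adjusted p = 1.12e-05). MX2 was far more abundant, with 47.4, 46.8 and 47.7 CPM in the knockdown libraries, against 65.3, 66.7 and 63.1 CPM in the control libraries. The values were tight in each group and apart between groups (−0.46, SE 0.0472, edgeR adjusted p = 6.41e-06). The fall of MX2 did not pass against a 1.5-fold change. RSAD2, which encodes viperin, and CMPK2, the neighbouring nucleotide kinase gene, had 6 and 8 reads in the knockdown and 7 and 14 in the control, below the filter.

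ISG15 is a ubiquitin-like protein that is joined to other proteins by the ligase HERC5 and removed by USP18. ISG15 (chromosome 1, 1013497 to 1014540) had 22.9, 21.9 and 21.1 CPM in the knockdown libraries, against 16.6, 13.1 and 19.2 CPM in the control libraries. All knockdown values were higher, while the controls varied more (0.42, SE 0.112, edgeR adjusted p = 0.00610). HERC5 had 4.07, 3.42 and 3.49 CPM in the knockdown libraries, against 2.84, 2.55 and 2.66 CPM in the control libraries. The rise was of similar size (0.45, SE 0.123, edgeR adjusted p = 0.00688). USP18 averaged 2.11 ± 0.167 CPM in the knockdown and 2.52 ± 0.327 CPM in the control (SD, n = 3 each) and did not pass (−0.27, SE 0.144, edgeR adjusted p = 0.116). HERC6, beside HERC5, had 10 reads in the knockdown and 16 in the control. The enzymes that act before HERC5, which are not members, were lower. UBA7, the activating enzyme (chosen after its value was seen), was at −1.70 (edgeR adjusted p = 6.71e-06). UBE2L6, the conjugating enzyme, was at −2.56 (edgeR adjusted p = 1.19e-09). Both are in a list of other interferon-stimulated genes, of whose tested genes 70.3% fell, against 34.2% of all tested genes. UBE2L6 averaged 3.10 ± 0.162 CPM in the knockdown and 18.3 ± 0.432 CPM in the control (SD, n = 3 each).

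IFI6, a small membrane protein that limits flavivirus replication, had one of the largest falls. IFI6 (chromosome 1, 27666064 to 27672192) had 3.03, 3.35 and 3.09 CPM in the knockdown libraries, against 11.5, 10.6 and 14.3 CPM in the control libraries. The groups were 3.86-fold apart by the fit (−1.95, SE 0.125, edgeR adjusted p = 1.51e-07). IFI35 had 22.3, 19.3 and 22.0 CPM in the knockdown libraries, against 28.3, 28.1 and 29.7 CPM in the control libraries (−0.43, SE 0.0696, edgeR adjusted p = 0.000208). IFI27 had 34 reads in the knockdown and 10 in the control, and IFI44 had 9 in the knockdown and 16 in the control. IFI44L had no read in any library, which allows up to 0.0316 CPM in the knockdown and 0.0417 CPM in the control (3 reads per group, counting error only). IFI27, an inducible interferon-stimulated gene, was below the filter, with 0.392, 0.221 and 0.433 CPM in the knockdown libraries, against 0.0799, 0 and 0.314 CPM in the control libraries. It was called higher without control replicate 3 (2.90, edgeR adjusted p = 0.00122) and with no filter (1.31, edgeR adjusted p = 0.0293), and not when another library was left out and it could be tested.

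Of the remaining 5 effectors 4 fell and ISG20 rose, where 34.2% of all tested genes fell and 33.1% rose. XAF1, a tumour suppressor that opposes the apoptosis inhibitor XIAP (chromosome 17, 6755447 to 6775647), had 0.131, 0.368 and 0.233 CPM in the knockdown libraries, against 1.96, 1.64 and 1.61 CPM in the control libraries, from 22 reads in the knockdown and 124 in the control. This was the largest change among the tested members (−2.89, SE 0.284, edgeR adjusted p = 4.57e-06). XAF1 could enter the test only by being higher in the control. XAF1 shares 2535 exon bases with PRAL on the opposite strand, a gene not analysed here. BST2, which encodes tetherin, a protein that holds budding virus at the cell surface (chromosome 19, 17402939 to 17405630), had 1.12, 1.69 and 1.13 CPM in the knockdown libraries, against 3.995, 3.18 and 4.15 CPM in the control libraries. The groups stood clearly apart (−1.55, SE 0.179, edgeR adjusted p = 1.61e-05). SP100, a scaffold of PML nuclear bodies (chromosome 2, 230416201 to 230545606), had 21.8, 20.8 and 22.7 CPM in the knockdown libraries, against 38.6, 40.1 and 38.5 CPM in the control libraries (−0.84, SE 0.0580, edgeR adjusted p = 2.60e-07). SP100 shares 544 exon bases with HMGB1P3 on the same strand, a gene not analysed here. ADAR, the enzyme that edits adenosine to inosine in double-stranded RNA and so limits its detection by MDA5, averaged 228 ± 4.78 CPM in the knockdown and 330 ± 9.73 CPM in the control (SD, n = 3 each). It fell by 0.54 on the log2 scale (SE 0.0410, edgeR adjusted p = 6.00e-07). ISG20, an RNA exonuclease, went the other way, with 9.64, 10.0 and 9.38 CPM in the knockdown libraries, against 7.27, 6.36 and 8.82 CPM in the control libraries. The rise was small (0.36, SE 0.110, edgeR adjusted p = 0.0128).

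Compared per length, in the size-factor-adjusted RPKM that the authors deposited, the members covered a wide range. ISG15 was highest in the knockdown at 32.2 ± 1.31 RPKM, and ADAR in the control at 45.0 ± 1.68 RPKM (SD, n = 3 each). Of the 41 members, 10 were above 10 RPKM in the knockdown and 9 in the control, while 16 in the knockdown and 14 in the control were under 1 RPKM. The median over all tested genes was 6.83 RPKM in the knockdown and 6.81 RPKM in the control. By order of level, IFI6 was 17th in the knockdown and 6th in the control, and IRF9 19th in the knockdown and 12th in the control. IFIT2 was 9th in the knockdown and 19th in the control, and IFIT1 15th in the knockdown and 21st in the control. MDA5's gene IFIH1 stood at 1.65 ± 0.140 RPKM in the knockdown and 4.07 ± 0.465 RPKM in the control, below RIGI, which stood at 7.14 ± 0.193 RPKM in the knockdown and 9.20 ± 0.508 RPKM in the control (SD, n = 3 each).

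**Figure D3:**
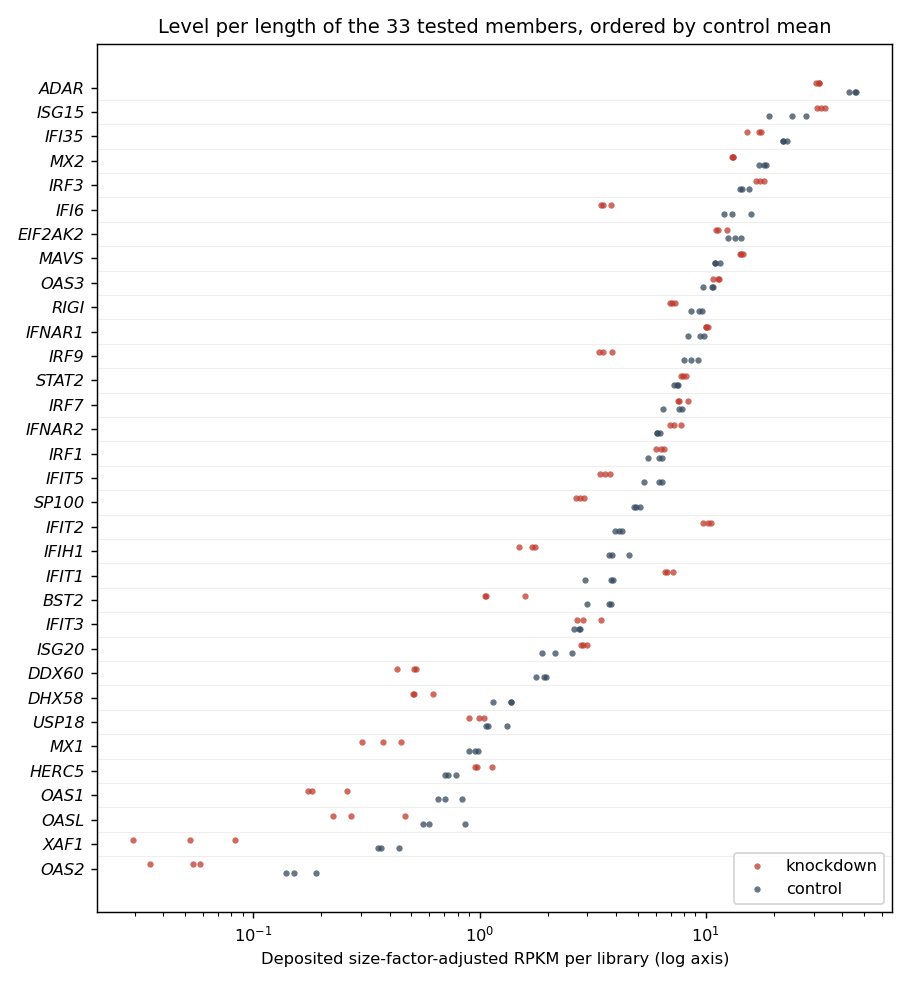
Deposited size-factor-adjusted RPKM of the 33 tested members on a log axis, in order of the control mean, with 3 dots per group for the libraries (knockdown above control in each row). The points of IFI6, IRF9, IFIH1 and DDX60 lie left of their control points, and those of IFIT2 and IFIT1 lie right of theirs.

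Calls were also compared between members that lie beside each other. Within 100 kb, 17 members formed 13 neighbouring pairs, and in 10 of these both genes were tested. The calls were the same in 3 pairs, IFIT1 with IFIT2 (both higher), OAS1 with OAS2 and MX1 with MX2 (both lower in each). In the other 7 pairs the calls differed. Only IFIT1 and IFIT5 had opposite calls. Each of the remaining pairs, such as OAS1 and OAS3, held a gene that did not pass. A call beside no call does not show that the genes differ, and that difference was not tested. The pairs share members, and the count was not compared with other pairs of genes.

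The rest of the pathway was read from lists chosen with earlier results of these data known. Of 13 genes of receptor-proximal signalling 5 rose and 4 fell (38.5% and 30.8%), close to the 33.1% and 34.2% of all tested genes. JAK1, the kinase bound to IFNAR2, averaged 443 ± 7.92 CPM in the knockdown and 266 ± 15.8 CPM in the control (SD, n = 3 each) and rose by 0.74 on the log2 scale (edgeR adjusted p = 1.83e-07, SE 0.0483). IFNLR1, a subunit of the type III interferon receptor, averaged 4.24 ± 0.318 CPM in the knockdown and 1.41 ± 0.114 CPM in the control (SD, n = 3 each) and rose by 1.58 (edgeR adjusted p = 1.32e-06, SE 0.134). IFNGR2, a subunit of the interferon gamma receptor, fell by 0.33 and SOCS3, a feedback inhibitor of JAK kinases, fell by 0.41 on the log2 scale (edgeR adjusted p = 3.13e-05 and 0.000490). Of 19 sensing and relay genes 18 were tested, of which 2 rose and 7 fell (11.1% and 38.9%). STING1, the adaptor of DNA sensing, rose by 0.70 and TRIM25, a ubiquitin ligase, by 0.23 (edgeR adjusted p = 2.51e-05 and 0.000547). PRKRA, an activator of PKR, fell by 0.97 and IRF2, a relative of IRF1, fell by 0.89 (edgeR adjusted p = 2.98e-08 and 3.43e-07).

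A second list of interferon-stimulated genes, none of them members, also leaned lower. It too was chosen with earlier results of these data known. Of 44 genes 37 were tested, and 26 of these fell while 6 rose (70.3% and 16.2%), against 34.2% and 33.1% of all tested genes. The median log2 fold change was −0.43. In edgeR's test against a 1.5-fold change 13 of the 37 passed as lower, against 9.16% of all tested genes. RTP4, SAMD9L and GBP4 are counted as lower in both tests. They reached the filter's level of 0.378 CPM in all 3 control libraries but not in all 3 knockdown libraries. These genes could therefore enter the test only through the control. The same holds for GBP2, which did not pass (−0.47, edgeR adjusted p = 0.267). TRIM14, an adaptor of MAVS signalling, averaged 8.81 ± 0.570 CPM in the knockdown and 24.9 ± 0.634 CPM in the control (−1.49, SE 0.0725, edgeR adjusted p = 1.87e-08). Together with UBE2L6 it had the smallest p of the list. TRIM5, a retroviral restriction factor, rose by 0.41 (SE 0.0447, edgeR adjusted p = 9.69e-06) and IFI30, a lysosomal thiol reductase, by 0.54 (SE 0.0618, edgeR adjusted p = 1.64e-05). IFITM1, IFITM2 and IFITM3, which block viral entry, were at −2.02, −0.36 and −1.06 (chosen after their values were seen). They are related copies in 1 cluster, and reads that match more than 1 of them would not be counted under unique alignment, so their values are uncertain.

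**Figure D4:**
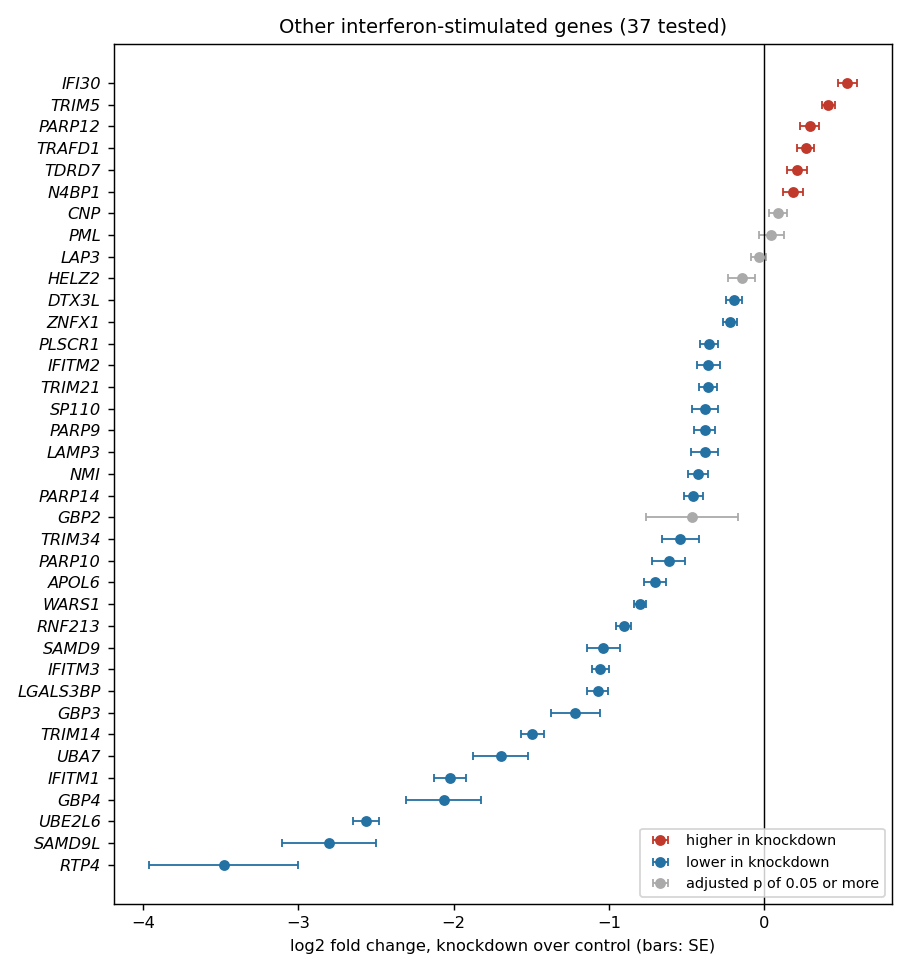
Log2 fold change of knockdown over control for the 37 tested interferon-stimulated genes that are not members. Horizontal bars are the SE derived from edgeR's test, and colour shows the call at an adjusted p of 0.05. The 26 genes called lower run down to RTP4 at −3.48, and the 6 called higher reach 0.54 at IFI30. RTP4, SAMD9L, GBP4 and GBP2 could enter the test only through the control.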

How the data were processed

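Each library's file holds, per the file headers, the count of reads aligned uniquely to each gene model and a size-factor-adjusted RPKM, both made by the authors. Per the submitters' processing notes, reads were aligned with GSNAP to GRCh38. No source used here gives the annotation release, strand setting or size-factor method. The ratio of deposited count to RPKM was a constant per library times a constant per gene (11875 genes checked), so tests used the counts and RPKM served only to compare levels between genes. Unique alignment lowers near-identical genes. Symbols came from RefSeq (GRCh38.p14) for 27814 of 30727 gene IDs, and exon overlaps from GENCODE 29.

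Low counts were removed with filterByExpr at a minimum count of 10 and a minimum total of 15. The quasi-likelihood test of edgeR 4.0.16 (R 4.3.3) was two-sided on TMM-scaled libraries, with Benjamini-Hochberg adjustment across the 15190 genes that remained and a threshold of 0.05. CPM are TMM-scaled, fold changes are knockdown over control, and the test was checked on simulated data. Each SE was derived from that test, as the absolute log2 fold change divided by the square root of the F statistic. Replicates were numbered in accession order and not paired. No 2 libraries of a group agreed within sampling noise (chi-square per degree of freedom 1.55 or more). Alternatives used DESeq2 1.42.0, limma 3.58.1, other scalings and filters, thinned libraries and each library left out. Members and lists were chosen with earlier results of these data known. Values in every library are given for the 3 largest rises and falls past the threshold in each role or effector subgroup.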

Additional observations from a re-analysis of the deposited data

How the results depend on the processing

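Direction and call of the 33 tested members were recomputed under 14 alternatives, giving 458 values. Of these, 443 kept direction and call, 12 lost the call (all in the test against a 1.5-fold change), 2 gained one (IFNAR1 without control replicate 2 and OAS3 without control replicate 3), and 1 changed sign, that of IRF1 (which had no call) at −0.01 without control replicate 1. The 12 were IFNAR2, RIGI, EIF2AK2, MAVS, IRF3, OASL, MX2, ISG15, HERC5, IFI35, ISG20 and ADAR. Against a 1.5-fold change, 1606 genes in all were called higher and 1392 lower. Members called higher were then 2 (0 receptors, 0 sensors, 0 transcription factors, 2 effectors) and sensors called lower were 3. In the receptor-proximal list 2 were higher and 0 lower, in the sensing and relay list 0 were higher and 3 lower, in the outside interferon-stimulated list 0 were higher and 13 lower, and KMT5C at −0.72 was not called. Medians moved with the filter. With no low-count filter they were −0.50 for members, −1.30 for sensors and −0.61 for effectors. With a mean log2 CPM of at least 1 they were −0.21 for members, −0.34 for effectors and −0.37 for the outside list, which stood at −0.38 with thinned libraries. Leaving out each library gave medians of −0.40 to −0.33 for members, 0.04 to 0.10 for transcription factors, −0.51 to −0.44 for effectors, 0.05 to 0.11 for the receptor-proximal list and −0.45 to −0.39 for the outside list. Receptors called higher ran from 1 to 2 and receptor-proximal genes called higher from 3 to 6. The cause of these shifts was not tested, beyond the fewer or more genes that a filter or a stricter test admits. Genes under about 1 CPM rest on few reads, and 3 libraries a group limit what small changes can be called. No paired analysis was possible because the labels give no replicate numbers.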

Other observations

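The calls were also counted by level, a split chosen after the values were seen. Of the 20 tested members with a mean of at least 10 CPM over the 6 libraries, 6 rose and 9 fell (30% and 45%), with a median log2 fold change of 0.06. Of the 13 tested members under 10 CPM, 2 rose and 9 fell (15.4% and 69.2%), with a median of −1.36. Over all tested genes at or above 10 CPM 34.4% rose and 37.9% fell, with a median of −0.02, close to the shares of the members there. Over all tested genes under 10 CPM 30.7% rose and 27.2% fell, with a median of 0.03. The 9 that fell among those under 10 CPM were IFI6, DDX60, DHX58, OAS1, OAS2, OASL, MX1, XAF1 and BST2. Of these, OAS2 and XAF1 could enter the test only by being higher in the control, so their falls are no evidence of a lean.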
